A study of Rattus norvegicus with 8 samples.

Results

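The tumor necrosis factor (TNF) ligand superfamily and the TNF receptor superfamily were followed in rat sciatic nerve allografts and unoperated nerves. Members were chosen by gene symbol: every Tnfsf and Tnfrsf gene with a number, and Tnf, Lta, Ltb, Ltbr, Fas, Faslg, Cd40, Cd40lg, Cd27, Cd70, Eda, Edar and Eda2r, with a read in at least 1 library. This gave 40 genes, 17 ligands and 23 receptors, out of 22798 genes with a read. Testing required 10 or more normalized counts in 2 or more libraries, which 37 members and 16478 genes in all reached. Tnf, Ltb and Tnfrsf17 did not reach that level, and Tnfsf11 matched by symbol but had 0 reads in all 8 libraries.

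Bulk RNA-seq was available for 3 peripheral nerve allografts (PNAs) treated with polyethylene glycol (PEG), a polymer that joins the membranes of closely apposed cut axons, for 3 negative control (NC) PNAs and for 2 unoperated sciatic nerves (Unop). Both kinds of PNA were sutured into the host nerve, rinsed with hypotonic saline and methylene blue, and excised 14 days postoperatively (PO), and PEG itself was left out only in NC. All rats were female, outbred Sprague Dawley (Envigo) animals of 3 to 6 months, and donor and host were neither tissue matched nor given immunosuppression, so cells of donor and host can both be present in a graft. Values are normalized counts, that is reads per gene divided by a size factor of the library, and each library held between 32472925 and 39959620 reads on genes. Summed Schwann cell markers were 57652 to 64204 in PEG-fused PNAs, 18305 to 65753 in NC PNAs and 2145857 to 2566752 in Unop nerves, and all 6 of these marker genes were detected. Summed skeletal muscle markers reached 563872 in NC 1 and 215314 in NC 3, beside 9407 in NC 2 and 2543 to 14419 in PEG-fused PNAs.

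TNF ligands are mostly trimeric membrane proteins that are also shed, and they act by clustering their receptors. Receptors with a cytoplasmic death domain, such as Fas and TNF receptor 1, can start apoptosis or necroptosis through the adaptors FADD and TRADD, whereas receptors without it recruit TRAF adaptors and turn on NF-kB and JNK. In immune tissue the latter act as costimulators of T and B cells. In injured nerve, TNF family signals are known from macrophages, Schwann cells and fibroblasts as well as from lymphocytes.

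Promoter sequences are shown for some of the members whose upstream region held a motif of a factor that acts in this pathway. Windows of Tnfsf13b, which was not called between the grafts, and Tnfrsf17, which was not tested, also held a match and are not shown. Those shown did not share 1 direction in the results below: Lta, Tnfsf14 and Tnfrsf1b were lower in PEG-fused than in NC PNAs, Tnfrsf12a was higher, Tnfrsf8 was not called and Ltb was not tested. RefSeq windows (GRCr8, a later assembly than the Rnor 6.0 build of the counts) were matched by symbol for 31 of the 40 members, and the 250 bases before each annotated start were searched on both strands. The NF-kB consensus was found in 4 of 31 member promoters (12.9%) and in 3.54% of all 33469 rat promoters, and the matches lay in Lta, Ltb, Tnfsf14 and Tnfrsf8. Capitals mark the match.
Lta (GRCr8 chr20:3623389-3623488, plus strand): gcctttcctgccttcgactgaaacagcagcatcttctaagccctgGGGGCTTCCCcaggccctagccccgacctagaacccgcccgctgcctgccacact
Ltb (GRCr8 chr20:3634055-3634124, minus strand): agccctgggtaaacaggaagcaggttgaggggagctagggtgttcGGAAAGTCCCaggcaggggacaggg
Tnfsf14 (GRCr8 chr9:2160212-2160311, minus strand): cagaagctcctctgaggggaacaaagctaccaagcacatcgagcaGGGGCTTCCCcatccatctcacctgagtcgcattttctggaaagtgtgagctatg
Tnfrsf8 (GRCr8 chr5:162451733-162451832, minus strand): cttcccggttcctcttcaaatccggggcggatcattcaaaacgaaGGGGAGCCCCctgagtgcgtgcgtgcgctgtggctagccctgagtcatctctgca
The match started 93 bases before the start of Lta, 25 before that of Ltb, 180 before that of Tnfsf14 and 167 before that of Tnfrsf8. Lta and Tnfsf14 held the same 10 letters.

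The STAT-type motif TTCNNNGAA, which reads the same on both strands, was found in 3 member promoters (9.68%; 7.67% of all promoters): Lta, Ltb and Tnfrsf12a. The interferon-response core GAAANNGAAA, searched on both strands, was found in Tnfrsf1b, Tnfrsf17 and Tnfsf13b (9.68%; 3.41% of all promoters). Windows of Tnfrsf12a and Tnfrsf1b are shown because these receptors are described in detail below, and capitals again mark the match.
Tnfrsf12a (GRCr8 chr10:13213731-13213829, minus strand): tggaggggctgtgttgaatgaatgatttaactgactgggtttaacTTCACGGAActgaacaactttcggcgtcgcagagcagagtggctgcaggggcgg
Tnfrsf1b (GRCr8 chr5:162387412-162387466, minus strand): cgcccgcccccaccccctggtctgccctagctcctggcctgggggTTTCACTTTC
In these members no match of one motif overlapped a match of another. A match describes the letters of the window and is no evidence that a factor bound there.

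PEG-fused PNAs held lower levels of many superfamily members than NC PNAs. Of the 37 members tested, 17 were lower and 2 were higher in PEG-fused PNAs, and 18 were not called (adjusted p under 0.05, limma). Over all genes tested, 13.9% were called lower and 15.0% higher in this comparison. The median log2 fold change of the members was -0.87, beside 0.0017 over all genes tested. Of 15 ligands tested, 6 were lower and 1 was higher, and of 22 receptors 11 were lower and 1 was higher. The lower members comprised Lta, Faslg, Cd40lg, Tnfsf14, Tnfsf10 and Tnfsf8 among the ligands, and 7 of the 8 TRAF-binding receptors of leukocytes. The higher members were the receptor Tnfrsf12a and the ligand Eda. With NC 2, which had few muscle reads, as the only NC library, 15 members were lower and 3, with Eda2r added, were higher. That comparison assumes that the lone NC library varies like those of the other groups. Tnfrsf13b and Lta, both counted among the lower members, reached the level for testing through the NC PNAs alone. Outside the NC PNAs, no library held the required count for Tnfrsf13b, and only PEG 1 held it for Lta.

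**Figure D1:**
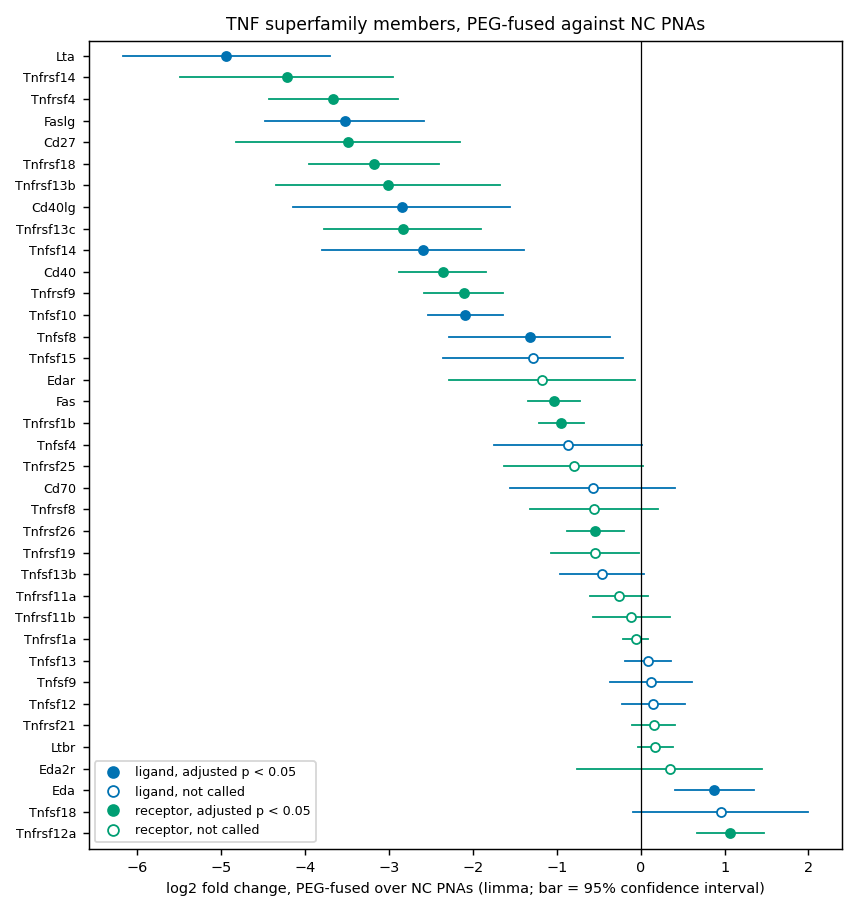
Log2 fold change (x axis) of the 37 tested members in PEG-fused over NC PNAs, with 95% confidence intervals from limma; filled points passed adjusted p under 0.05, blue points are ligands and green points receptors. Lta lies farthest to the left at -4.94 and Tnfrsf12a farthest to the right at 1.07.

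Against Unop nerves the members were mostly higher in both kinds of graft. In PEG-fused PNAs 24 members were higher and 4 lower (29.1% of all genes were called higher and 28.6% lower), with a median log2 fold change of 1.18. In NC PNAs 27 members were higher and 3 lower (32.2% higher and 32.3% lower over all genes), with a median of 2.05. Both comparisons share the same 2 Unop nerves and are not independent. When each library was left out in turn, 10 of the 28 calls in PEG-fused PNAs and 4 of the 30 in NC PNAs were lost at least once, as given below for each member.

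Leukocyte markers also differed between the grafts. All 8 T cell markers tested were lower in PEG-fused than in NC PNAs, with sums of 7087 to 10525 in PEG-fused PNAs, 24751 to 42679 in NC PNAs and 1727 to 2052 in Unop nerves. Most of the PEG-fused sum was Cd4, which rat macrophages also carry and which differed by -0.73 on the log2 scale. Without Cd4 the sums were 1420.1 to 4193 in PEG-fused PNAs, 16975 to 32024 in NC PNAs and 149 to 300.5 in Unop nerves, and the log2 fold changes of the 7 other markers in PEG-fused against NC PNAs lay between -3.84 and -2.35, with a median of -3.21. All 3 natural killer cell markers were lower, with sums of 292 to 1033 in PEG-fused and 3135 to 6431 in NC PNAs. Of 7 macrophage markers 6 were lower, with sums of 81962 to 100782 in PEG-fused and 132104 to 151406 in NC PNAs. No defining marker of these lists was at 0 in all libraries. In bulk tissue fewer cells of a type and less RNA per cell cannot be told apart, and the part of cell numbers in the members' differences was not tested.

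Lymphotoxin alpha was the ligand with the largest difference between the grafts. Lta (ENSRNOG00000000838), a secreted cytokine of activated lymphocytes that binds the same receptors as TNF, had normalized counts of 14.8, 3.74 and 7.50 in PEG 1 to PEG 3, 367, 342 and 146 in NC 1 to NC 3 and 1.07 and 2.50 in Unop 1 and Unop 2. Every NC PNA was above every PEG-fused PNA, and the PEG-fused PNAs lay nearer to the Unop nerves than to the NC PNAs. Compared between the grafts, its log2 fold change was -4.94 ± 0.54 (SE; adjusted p = 0.000897), limma on log2(normalized count + 1). This scale understates changes of low genes, and with a pseudocount of 8 the difference was -4.08. Outside the NC PNAs only PEG 1 held the count required for testing, so Lta was tested only through the group where it is high. The Unop level rested on 1 and 2 reads, so no fold against Unop is given. The limma call of Lta in PEG-fused PNAs against Unop (adjusted p = 0.0409) was lost without PEG 1, PEG 3, Unop 1 or Unop 2 (adjusted p up to 0.208). With all libraries, edgeR (adjusted p = 0.0747) and limma with a pseudocount of 8 (adjusted p = 0.183) did not call it, whereas DESeq2 did (adjusted p = 0.0397).

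Lymphotoxin beta and TNF itself were near the limit of detection. Ltb, which anchors lymphotoxin alpha to the cell surface, had 1, 0 and 2 reads in PEG 1 to PEG 3, 20, 9 and 7 reads in NC 1 to NC 3 and 0 in both Unop nerves. A further row described as lymphotoxin-beta had 2, 1 and 2 reads in the PEG-fused PNAs, 24, 13 and 14 in the NC PNAs and 0 in the Unop nerves. Both rows were higher in each NC PNA than in each PEG-fused PNA. Ltb was not tested, and the further row was tested only because it reached 10 counts in the NC PNAs, the group where it is high, so its test is not given. Tnf had 1 read in NC 1 and 0 in the other 7 libraries, and a row described as TNF-like had 1 read in NC 1, 1 in NC 3 and 0 elsewhere. Tnfsf11, the ligand RANKL, likewise had a further row by description, and both were at 0 in all libraries. Reads of near-identical copies can be lost or split by the counting, so the levels of Tnf, Ltb and Tnfsf11 are uncertain. How many reads were lost in this way was not tested.

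**Figure D2:**
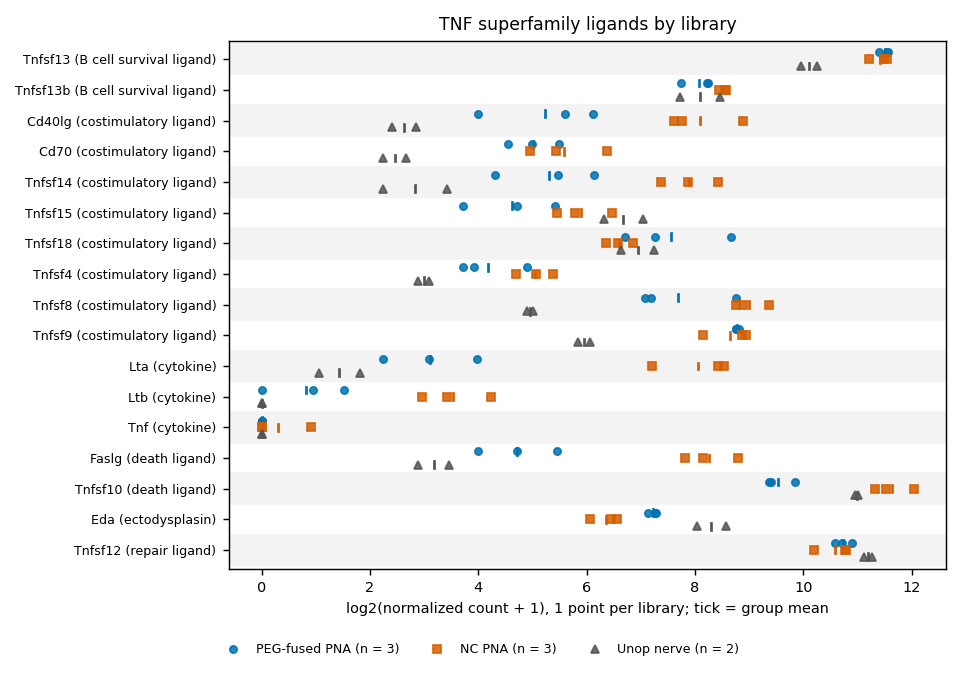
Log2(normalized count + 1) of the 17 ligands (x axis) in each library, with group means as vertical ticks; circles are PEG-fused PNAs, squares NC PNAs and triangles Unop nerves. Lta, Faslg, Cd40lg and Tnfsf14 show the NC squares apart to the right, whereas the Tnfsf10 circles lie to the left of both other groups.

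The death ligands differed in where the PEG-fused PNAs stood relative to Unop nerves. Fas ligand (Faslg, ENSRNOG00000002978), the killing signal of cytotoxic T cells and natural killer cells, had normalized counts of 42.6, 15.0 and 25.3 in PEG 1 to PEG 3, 225, 283 and 439.9 in NC 1 to NC 3 and 6.44 and 10.01 in Unop 1 and Unop 2. It was lower in PEG-fused than in NC PNAs (log2 fold change -3.53, SE 0.41, adjusted p = 0.00111, limma). Above Unop it stood by 1.54 (adjusted p = 0.0201) in PEG-fused PNAs, a call lost without PEG 1 or Unop 1 (adjusted p up to 0.124), and by 5.07 (adjusted p = 2.77e-05) in NC PNAs, or 4.27 with a pseudocount of 8. Tnfsf10 (ENSRNOG00000013269), which encodes TRAIL, had counts of 919, 676 and 654 in PEG 1 to PEG 3, 4197, 2552 and 2935 in NC 1 to NC 3 and 1976 and 2061 in Unop 1 and Unop 2. All 3 PEG-fused PNAs were below both Unop nerves, and all 3 NC PNAs were above them. Tnfsf10 changed by -2.09 ± 0.20 (SE; adjusted p = 0.000589) on the log2 scale in PEG-fused against NC PNAs and -1.45 ± 0.22 (SE; adjusted p = 0.00066) against Unop, limma. In NC PNAs against Unop it was 0.65 ± 0.22 (SE; adjusted p = 0.0299), a call that was lost without NC 1, Unop 1 or Unop 2 (adjusted p up to 0.123).

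Fas (ENSRNOG00000019142), the receptor of Fas ligand, was also lower in PEG-fused than in NC PNAs. Its counts were 497, 435 and 374 in PEG 1 to PEG 3, 856, 1006 and 802 in NC 1 to NC 3 and 537 and 524 in Unop 1 and Unop 2, and the groups of PNAs did not overlap. Against NC PNAs the log2 fold change was -1.03 ± 0.14 (SE; adjusted p = 0.00156), limma, and it was -0.29 (adjusted p = 0.128) against Unop, where it was not called. In NC PNAs Fas was above Unop by 0.74 (adjusted p = 0.00277).

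Of the costimulatory ligands, 3 of 8 were lower in PEG-fused than in NC PNAs and none was higher (13.9% and 15.0% of all genes tested). Against Unop, 6 of 8 were higher in each kind of graft (29.1% of all genes in PEG-fused and 32.2% in NC PNAs). Cd40lg (ENSRNOG00000000871), by which helper T cells activate B cells and macrophages, had counts of 47.3, 15.0 and 68.5 in the PEG-fused and 215, 473 and 195 in the NC PNAs. The Unop nerves had 4.29 and 6.25. PEG 2 was the lowest PNA, and the 2 groups did not overlap (log2 fold change -2.85, SE 0.57, adjusted p = 0.00779, limma), and without PEG 2 the value was -2.23. Tnfsf14 (ENSRNOG00000047730), also called LIGHT, a T cell ligand of the herpesvirus entry mediator, had counts of 69.5, 18.7 and 43.2 in PEG 1 to PEG 3, 165, 344 and 233 in NC 1 to NC 3 and 9.66 and 3.75 in Unop 1 and Unop 2. The groups of PNAs again did not overlap, with PEG 2 lowest, and the log2 fold change was -2.59 ± 0.52 (SE; adjusted p = 0.0084), limma. Of the calls against Unop in PEG-fused PNAs, that of Cd40lg (2.60 on the log2 scale) was lost without Unop 1 and that of Tnfsf14 (2.47) without Unop 2, with adjusted p of 0.0564 and 0.0645. With a pseudocount of 8 these differences were 1.80 and 1.72, and that of Cd40lg was 3.22 without PEG 2.

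Tnfsf8 (ENSRNOG00000048321), the CD30 ligand of activated T cells, had counts of 146, 134 and 432 in the PEG-fused and 471, 661 and 429 in the NC PNAs, and 31.1 and 28.8 in Unop nerves. PEG 3 lay within the NC range. The log2 fold change of -1.32 ± 0.42 (SE; adjusted p = 0.0462), limma, was called, but the call was lost when any library other than PEG 3 was left out (adjusted p up to 0.153) and in several of the other fits, edgeR among them. Tnfsf4 (OX40 ligand), Cd70, Tnfsf9 (4-1BB ligand), Tnfsf15 and Tnfsf18 (GITR ligand) were not called between the grafts. Tnfsf9 had 430.1, 449.7 and 431 in the PEG-fused and 281, 491 and 467 in the NC PNAs, a log2 fold change of 0.12 with a 95% confidence interval from -0.37 to 0.62, and it was above Unop in both grafts by 2.83 and 2.70. Tnfsf9 overlapped between the grafts and stood well above the 65.5 and 56.3 of Unop nerves.

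Tnfsf15 (TL1A), a ligand of endothelial and myeloid cells, went the other way from most ligands against Unop. Its counts were 41.7, 12.2 and 25.3 in PEG 1 to PEG 3, 42.9, 53.8 and 87.8 in NC 1 to NC 3 and 78.3 and 131 in Unop 1 and Unop 2, and each PEG-fused PNA was below both Unop nerves (log2 fold change -2.06, SE 0.52, adjusted p = 0.0094, limma). That call was lost without Unop 2 (adjusted p = 0.079). Tnfsf18 counts were 153, 404 and 104 in the PEG-fused and 80.4, 94.7 and 115 in the NC PNAs, with PEG 2 far above the other PNAs, and limma did not call it (log2 fold change 0.95, adjusted p = 0.151). DESeq2 called it higher at 1.19 (adjusted p = 0.0384), and without PEG 2 the limma value was 0.40. Tnfsf15 was not called between the grafts at -1.28, but was called lower in PEG-fused PNAs without PEG 1 (log2 fold change -1.68). Cd70, the ligand of CD27, had 22.2, 43.9 and 31.0 in the PEG-fused and 42.0, 81.8 and 29.9 in the NC PNAs, with overlapping groups, and Tnfsf4 had 28.7, 12.2 and 14.1 in the PEG-fused and 25.0, 32.3 and 40.5 in the NC PNAs. Cd70 was above Unop by a log2 fold change of 2.55 (adjusted p = 0.00207) in PEG-fused and 3.12 (adjusted p = 0.000545) in NC PNAs, limma, values that rested on few Unop reads and became 1.65 and 2.14 with a pseudocount of 8. Tnfsf4 was above Unop by 1.18 (adjusted p = 0.0428) and 2.05 (adjusted p = 0.00306), and its call in PEG-fused PNAs was lost without PEG 1, PEG 3, Unop 1, Unop 2, NC 2 or NC 3. With a pseudocount of 8 these became 0.76, which was not called, and 1.42.

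The TRAF-binding receptors of leukocytes formed the group with the most calls. Of 8 tested, 7 were lower in PEG-fused than in NC PNAs, Tnfrsf8 was not called, and all 8 were above Unop in both kinds of graft. Over all genes tested, 13.9% were lower in PEG-fused than in NC PNAs. Above Unop were 29.1% of all genes in PEG-fused and 32.2% in NC PNAs. The median log2 fold change of the 8 receptors was -2.77 in PEG-fused against NC PNAs, 2.93 in PEG-fused PNAs against Unop and 5.14 in NC PNAs against Unop.

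**Figure D3:**
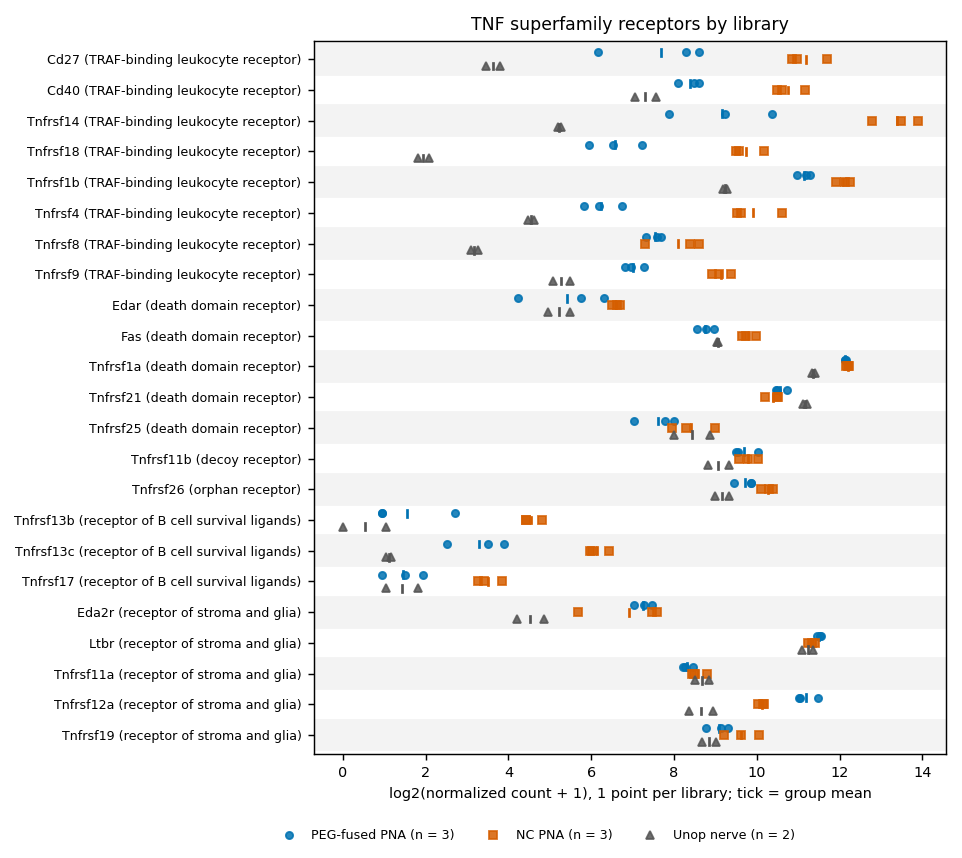
Log2(normalized count + 1) of the 23 receptors (x axis) in each library, with group means as vertical ticks; circles are PEG-fused PNAs, squares NC PNAs and triangles Unop nerves. In the top rows, apart from Tnfrsf8, Unop triangles, PEG-fused circles and NC squares follow each other without overlap, whereas the Tnfrsf1a circles and squares coincide and the Tnfrsf12a circles lie to the right.

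Tnfrsf14 (ENSRNOG00000013820), the herpesvirus entry mediator that binds Tnfsf14, lymphotoxin alpha and the inhibitory receptor BTLA, had counts of 1319, 236 and 605 in PEG 1 to PEG 3, 7019, 15132 and 11530.4 in NC 1 to NC 3 and 35.4 and 37.5 in Unop 1 and Unop 2. The PEG-fused PNAs differed among themselves, with PEG 1 highest and PEG 2 lowest, yet all stayed below every NC PNA. The log2 fold change was -4.22 ± 0.55 (SE; adjusted p = 0.00155) against NC PNAs and 3.94 ± 0.62 (SE; adjusted p = 0.000796) against Unop, limma. Against NC PNAs it became -4.82 without PEG 1 and -3.58 without PEG 2, and against Unop 3.34 and 4.58. Cd27 (ENSRNOG00000027466), the receptor of CD70 on naive and memory T cells, had counts of 391, 70.1 and 314 in PEG 1 to PEG 3, 2022, 3323 and 1858 in NC 1 to NC 3 and 12.9 and 10.01 in Unop 1 and Unop 2. It showed the same order, with PEG 2 lowest of the PNAs, and a log2 fold change of -3.49 ± 0.58 (SE; adjusted p = 0.00394) against NC PNAs, limma, which became -2.72 without PEG 2 and was still called.

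Tnfrsf4 (OX40, ENSRNOG00000020106) and Tnfrsf18 (GITR, ENSRNOG00000022012) are receptors of activated and regulatory T cells. Tnfrsf4 counts were 105.7, 71.99 and 55.3 in PEG 1 to PEG 3, 728, 1564 and 781 in NC 1 to NC 3 and 23.6 and 21.3 in Unop 1 and Unop 2. Tnfrsf18 counts were 149, 60.8 and 91.0 in PEG 1 to PEG 3, 727, 1146 and 763 in NC 1 to NC 3 and 3.22 and 2.50 in Unop 1 and Unop 2. No PEG-fused PNA reached the NC range of either gene, and all PEG-fused PNAs exceeded the Unop nerves. Against NC PNAs the log2 fold change was -3.66 ± 0.34 (SE; adjusted p = 0.000571) for Tnfrsf4 and -3.18 ± 0.34 (SE; adjusted p = 0.000819) for Tnfrsf18, limma. Tnfrsf18 rested on 3 and 2 reads in the Unop nerves, so no fold against Unop is given.

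Tnfrsf9 (4-1BB, ENSRNOG00000036942), a receptor induced on activated T cells, had counts of 123, 155 and 112 in PEG 1 to PEG 3, 668, 540.0 and 486 in NC 1 to NC 3 and 44.0 and 32.5 in Unop 1 and Unop 2, and here PEG 2 was the highest of the PEG-fused PNAs. It changed by -2.11 ± 0.21 (SE; adjusted p = 0.000624) on the log2 scale against NC PNAs, limma. Cd40 (ENSRNOG00000018488), carried by B cells, dendritic cells and macrophages, had counts of 354, 273 and 387 in PEG 1 to PEG 3, 1427, 2303 and 1556 in NC 1 to NC 3 and 189 and 131 in Unop 1 and Unop 2. Cd40 changed by -2.36 ± 0.23 (SE; adjusted p = 0.000623) on the log2 scale against NC PNAs and 1.08 ± 0.25 (SE; adjusted p = 0.00637) against Unop, and the latter call was lost without Unop 2 (adjusted p = 0.0605). Tnfrsf8 (CD30) had counts of 158, 192.6 and 206 in PEG 1 to PEG 3, 155, 389 and 334 in NC 1 to NC 3 and 8.59 and 7.50 in Unop 1 and Unop 2. NC 1 fell just below the PEG-fused range, and without NC 1 Tnfrsf8 was called lower in PEG-fused PNAs (-0.96 on the log2 scale, beside -0.56, adjusted p = 0.241 with all libraries).

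The receptors of TNF itself separated. Tnfrsf1a (ENSRNOG00000031312), the death domain receptor TNFR1 found on most cells, had counts of 4453, 4499.6 and 4525 in PEG 1 to PEG 3, 4554, 4748 and 4767 in NC 1 to NC 3 and 2693 and 2584 in Unop 1 and Unop 2. Tnfrsf1b (ENSRNOG00000016575), the TRAF-binding receptor TNFR2 of leukocytes, endothelium and glia, had counts of 2339, 2014 and 2477 in PEG 1 to PEG 3, 3841, 4856 and 4465 in NC 1 to NC 3 and 625 and 579 in Unop 1 and Unop 2. Tnfrsf1a stood at nearly the same level in both kinds of graft, with a log2 fold change of -0.062 with a 95% confidence interval from -0.21 to 0.090, and above Unop by 0.77 (adjusted p = 5.48e-05) in PEG-fused and 0.83 (adjusted p = 2.45e-05) in NC PNAs, limma. Tnfrsf1b was lower in PEG-fused than in NC PNAs (log2 fold change -0.94, SE 0.12, adjusted p = 0.00124) and above Unop in both grafts (1.91 and 2.86). Within each library, the ratio of Tnfrsf1b to Tnfrsf1a counts was 0.525, 0.448 and 0.547 in PEG 1 to PEG 3, 0.843, 1.02 and 0.937 in NC 1 to NC 3 and 0.232 and 0.224 in the Unop nerves. The ratio was lower in all 3 PEG-fused than in all 3 NC PNAs, by 1.84-fold (exact two-sided permutation test, p = 0.1, adjusted p = 0.15 over 3 ratios). With 3 PNAs against 3, 0.1 is the smallest p that this test can give.

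The ratio of Faslg to Fas counts was 0.0858, 0.0344 and 0.0677 in PEG 1 to PEG 3, 0.263, 0.281 and 0.549 in NC 1 to NC 3 and 0.0120 and 0.0191 in the Unop nerves. It was 5.66-fold lower in PEG-fused PNAs (exact permutation test, p = 0.1, adjusted p = 0.15), without overlap. The ratio of Cd40lg to Cd40 was 0.134, 0.0548 and 0.177 in PEG 1 to PEG 3, 0.151, 0.205 and 0.125 in NC 1 to NC 3 and 0.0227 and 0.0476 in the Unop nerves, and the groups of PNAs overlapped (exact permutation test, p = 0.5, adjusted p = 0.5).

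The other death domain receptors among the members were not called between the grafts. Tnfrsf21 (death receptor 6), a receptor of neurons and glia, had counts of 1402, 1684 and 1439 in PEG 1 to PEG 3, 1456, 1425 and 1182 in NC 1 to NC 3 and 2378 and 2236 in Unop 1 and Unop 2. It was lower than in Unop in PEG-fused PNAs (log2 fold change -0.62, adjusted p = 0.00301, limma) and in NC PNAs (-0.77, adjusted p = 0.000727), and between them the difference was 0.16 with a 95% confidence interval from -0.099 to 0.41. Tnfrsf25 (death receptor 3 of T cells, the receptor of Tnfsf15) had 221, 129.9 and 257 in PEG 1 to PEG 3, 246, 506 and 314 in NC 1 to NC 3 and 253 and 470.3 in Unop 1 and Unop 2, and limma called it in none of the comparisons. Edar, the receptor of ectodysplasin, had 52.8, 17.8 and 77.9 in PEG 1 to PEG 3, 89.4, 96.8 and 103 in NC 1 to NC 3 and 30.0 and 43.8 in Unop 1 and Unop 2, with a log2 fold change in PEG-fused against NC PNAs of -1.18 (adjusted p = 0.102), limma. Edar was called there without PEG 3, at -1.61 on the log2 scale, whereas without PEG 2 the value was -0.58. In NC PNAs against Unop it missed the threshold (log2 fold change 1.38, adjusted p = 0.0501, limma), and both DESeq2 and edgeR called it there.

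Receptors of the B cell survival ligands were low, and highest in the NC PNAs. Tnfrsf13c (BAFF receptor, ENSRNOG00000007664) had counts of 13.9, 4.67 and 10.3 in the PEG-fused and 85.8, 63.5 and 61.7 in the NC PNAs and 1 read in each Unop nerve, with a log2 fold change of -2.84 ± 0.41 (SE; adjusted p = 0.00221), limma, and -2.17 with a pseudocount of 8. Tnfrsf13b (TACI, ENSRNOG00000002304) had 5.56, 0.935 and 0.938 in the PEG-fused and 20.6, 20.4 and 27.0 in the NC PNAs, with -3.01 ± 0.58 (SE; adjusted p = 0.00711), which became -1.57 with a pseudocount of 8 and -3.60 without PEG 1. No PEG-fused PNA or Unop nerve reached the 10 counts of the filter for Tnfrsf13b, so it was tested only through the group where it is high. Tnfrsf17 (BCMA, of plasma cells) was not tested and had 2, 3 and 1 reads in PEG 1 to PEG 3, 15, 9 and 9 in NC 1 to NC 3 and 1 and 2 in the Unop nerves. All 3 receptors were higher in every NC than in every PEG-fused PNA. Their ligands were not called between the grafts. Tnfsf13 (APRIL) had counts of 2986, 2681 and 3010.3 in PEG 1 to PEG 3, 2362, 2970.2 and 2859 in NC 1 to NC 3 and 1215 and 991 in Unop 1 and Unop 2, above Unop by 1.40 (adjusted p = 5.01e-05) in PEG-fused and 1.31 (adjusted p = 5.02e-05) in NC PNAs, limma. Tnfsf13b (BAFF) had 299, 214 and 297 in PEG 1 to PEG 3, 381, 349 and 375 in NC 1 to NC 3 and 353 and 209 in Unop 1 and Unop 2, and limma called it in none of the comparisons. All 4 B cell marker genes tested were lower in PEG-fused than in NC PNAs, with sums of 735 to 900.0 in PEG-fused and 1289 to 1799 in NC PNAs. The part of B cell numbers in these differences was not tested.

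Tnfrsf12a was the only receptor among the members that was called higher in PEG-fused than in NC PNAs. Tnfrsf12a (ENSRNOG00000003546), also called Fn14, is induced in injured tissue on fibroblasts, glia and muscle and binds the ligand TWEAK, encoded by Tnfsf12. Its counts were 2079.9, 2862 and 2108 in PEG 1 to PEG 3, 1146, 1037 and 1141 in NC 1 to NC 3 and 495 and 329 in Unop 1 and Unop 2. The 3 groups were ordered without overlap, with PEG-fused PNAs highest and Unop nerves lowest. The log2 fold change was 1.07 ± 0.18 (SE; adjusted p = 0.00366) against NC PNAs, 2.52 ± 0.20 (SE; adjusted p = 1.75e-05) against Unop and, for NC PNAs against Unop, 1.45 ± 0.20 (SE; adjusted p = 0.000262), limma. Summed fibroblast markers were 254497 to 374493 in PEG-fused PNAs, 144613 to 209137 in NC PNAs and 244151 to 331081 in Unop nerves, and their part in the difference between the grafts was not tested. Its ligand Tnfsf12 had counts of 1681, 1531 and 1897 in PEG 1 to PEG 3, 1173, 1757 and 1731 in NC 1 to NC 3 and 2462 and 2228 in Unop 1 and Unop 2. Tnfsf12 was not called between the grafts (0.15 with a 95% confidence interval from -0.22 to 0.52), and it was lower in NC PNAs than in Unop nerves (log2 fold change -0.62, adjusted p = 0.0168, limma), a call lost without Unop 1 (adjusted p = 0.098).

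Ectodysplasin (Eda, ENSRNOG00000032208), a ligand known from skin appendages, had counts of 153, 139 and 155 in PEG 1 to PEG 3, 92.9, 65.6 and 85.9 in NC 1 to NC 3 and 259.7 and 378 in Unop 1 and Unop 2. It was lower in both grafts than in Unop nerves, and all PEG-fused PNAs were above all NC PNAs. The log2 fold change was 0.88 ± 0.21 (SE; adjusted p = 0.0152) in PEG-fused against NC PNAs, -1.07 ± 0.23 (SE; adjusted p = 0.00413) in PEG-fused PNAs against Unop and -1.95 ± 0.23 (SE; adjusted p = 0.00012) in NC PNAs against Unop, limma. The call between the grafts was lost without PEG 3 (adjusted p = 0.0536). Eda2r, the receptor of the A2 form of ectodysplasin, had counts of 175, 155 and 130.4 in PEG 1 to PEG 3, 176, 50.6 and 192.9 in NC 1 to NC 3 and 27.9 and 17.5 in Unop 1 and Unop 2. It was above Unop by 2.73 (adjusted p = 0.00271) in PEG-fused and 2.39 (adjusted p = 0.0046) in NC PNAs, limma, and was not called between the grafts. NC 1 and NC 3, which held the muscle reads, had the higher Eda2r counts among NC PNAs, and the part of muscle in them was not tested. Without NC 2, the difference between the grafts changed from 0.34 to -0.27 on the log2 scale, and with NC 2 as the only NC library it was 1.57 and called (adjusted p = 0.0305). The value of NC PNAs against Unop became 3.00 without NC 2.

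Of the remaining receptors of stroma and glia, none was called between the grafts. Ltbr, the lymphotoxin beta receptor of stromal and myeloid cells, had 2784, 2954 and 3003 in PEG 1 to PEG 3, 2423, 2731 and 2599.7 in NC 1 to NC 3 and 2613 and 2190.0 in Unop 1 and Unop 2, and Tnfrsf11a (RANK) had 305, 297 and 354 in PEG 1 to PEG 3, 348, 441 and 358 in NC 1 to NC 3 and 463 and 364 in Unop 1 and Unop 2. Both were nearly level across the groups. Ltbr was above Unop in PEG-fused PNAs by 0.28 (adjusted p = 0.0421) on the log2 scale, limma, which was lost without PEG 1, PEG 2, PEG 3, NC 3 or Unop 2. Tnfrsf19 (TROY), a receptor of neural progenitors and glia, had 563, 438 and 636 in PEG 1 to PEG 3, 1054, 591 and 780.4 in NC 1 to NC 3 and 407 and 513 in Unop 1 and Unop 2. It was above Unop in NC PNAs (log2 fold change 0.78, adjusted p = 0.0249, limma), which was lost without NC 1, NC 3 or Unop 1, and it became lower in PEG-fused than in NC PNAs without NC 2 (-0.75, beside -0.54, adjusted p = 0.108 with all libraries).

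Tnfrsf11b (osteoprotegerin), a soluble decoy for RANKL and TRAIL, had 742, 1048 and 719 in PEG 1 to PEG 3, 764, 877 and 1052 in NC 1 to NC 3 and 637 and 448 in Unop 1 and Unop 2. It was not called between the grafts (-0.11 with a 95% confidence interval from -0.57 to 0.35), and was above Unop by 0.62 (adjusted p = 0.0404) in PEG-fused and 0.74 (adjusted p = 0.0187) in NC PNAs, limma. The former call was lost without PEG 1, PEG 2, NC 2 or Unop 2, and the latter without NC 3 or Unop 2. Tnfrsf26 (ENSRNOG00000043486), a receptor without a death domain, had 924, 701 and 927 in PEG 1 to PEG 3, 1106, 1347 and 1248 in NC 1 to NC 3 and 639.6 and 510.3 in Unop 1 and Unop 2. It was lower in PEG-fused than in NC PNAs (log2 fold change -0.54, SE 0.15, adjusted p = 0.0269, limma). It was above Unop by 0.56 (adjusted p = 0.018) in PEG-fused PNAs, a call lost without PEG 1, PEG 3 or Unop 2, and by 1.10 (adjusted p = 0.000468) in NC PNAs. The difference between the grafts lost its call without NC 2, NC 3 or PEG 2 (adjusted p up to 0.0867).

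To set members known from T cells beside a measure of T cell RNA, 11 of them were expressed per 1000 normalized counts of the T cell receptor complex genes Cd3d, Cd3e and Cd3g. The summed counts of these 3 genes were 1470.0, 385 and 1236 in PEG 1 to PEG 3 and 7749, 14866 and 10021 in NC 1 to NC 3. On this scale 4 members were higher in every PEG-fused than in every NC PNA, Lta was lower in every one, and 6 overlapped. The share of all genes that would be higher on this scale was not computed. The Cd3 sum was itself lower in every PEG-fused PNA, so a gene that differed less than Cd3 stands higher here. With Cd2 and Cd5 as the denominator 3 were higher, Lta was lower and 7 overlapped, Cd40lg now among them. No member passed the exact permutation test after adjustment over the 11, which 3 PNAs against 3 cannot reach.

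**Figure D4:**
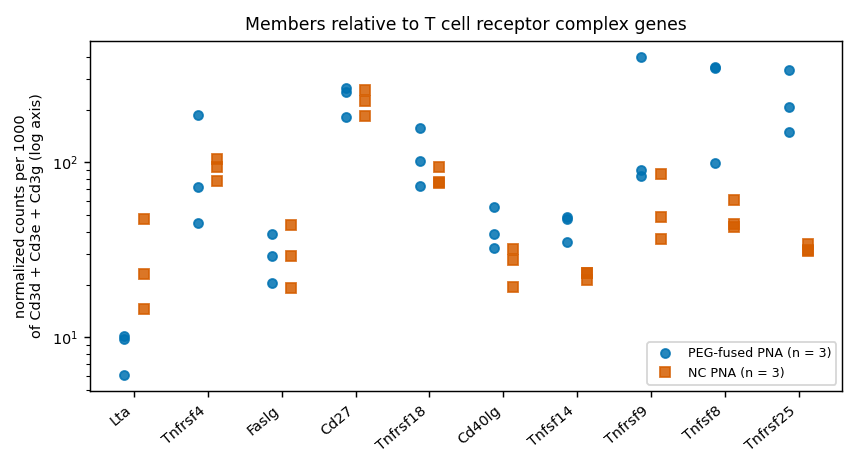
Normalized counts of 10 members per 1000 of Cd3d, Cd3e and Cd3g together (log y axis) in each PEG-fused (circles) and NC PNA (squares); Ltb, with 0 reads in PEG 2, is left out. Lta is the member with all circles below the squares, and the Cd40lg, Tnfsf14, Tnfsf8 and Tnfrsf25 circles lie above the squares.

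Lta per 1000 Cd3 counts was 10.1, 9.71 and 6.07 in PEG 1 to PEG 3 and 47.4, 23.0 and 14.5 in NC 1 to NC 3, 2.60-fold lower in PEG-fused PNAs (exact two-sided permutation test, p = 0.1, adjusted p = 0.22). No PEG-fused PNA reached the lowest NC value of Lta. Cd40lg was 32.2, 38.8 and 55.4 in PEG 1 to PEG 3 and 27.8, 31.8 and 19.4 in NC 1 to NC 3, 1.64-fold higher (exact permutation test, p = 0.1, adjusted p = 0.22). Tnfsf14 was 47.3, 48.5 and 34.9 in PEG 1 to PEG 3 and 21.3, 23.2 and 23.3 in NC 1 to NC 3, 1.96-fold higher with the same p. Per 1000 counts of Cd2 and Cd5 together, Cd40lg was 54.8, 46.6 and 86.9 in PEG 1 to PEG 3 and 60.9, 60.5 and 44.1 in NC 1 to NC 3, with overlapping groups and a 1.14-fold difference, and Tnfsf14 was 80.7, 58.3 and 54.8 in PEG 1 to PEG 3 and 46.7, 44.0 and 52.8 in NC 1 to NC 3, 1.37-fold higher without overlap. The position of Cd40lg relative to T cell genes thus depended on the denominator. Faslg was 29.0, 38.8 and 20.5 in PEG 1 to PEG 3 and 29.1, 19.0 and 43.9 in NC 1 to NC 3 and Cd27 was 266, 182 and 254 in PEG 1 to PEG 3 and 261, 224 and 185 in NC 1 to NC 3, and the PNAs of both groups overlapped (exact permutation test, p = 0.9 and 0.8).

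Tnfsf8 per 1000 Cd3 counts was 99.0, 347 and 349.8 in PEG 1 to PEG 3 and 60.8, 44.4 and 42.8 in NC 1 to NC 3, 4.72-fold higher, and Tnfrsf25 was 150.1, 337 and 208 in PEG 1 to PEG 3 and 31.7, 34.0 and 31.3 in NC 1 to NC 3, 6.80-fold higher in PEG-fused PNAs (exact permutation test, p = 0.1 and adjusted p = 0.22 for each). Unop nerves, with 134 and 70.0 summed Cd3 counts, had 1888 and 6714 Tnfrsf25 counts per 1000. Tnfrsf25 counts in the Unop nerves lay within the range of the NC PNAs despite these low Cd3 counts, so in this tissue its level did not follow T cell genes and its value per Cd3 count is no measure per T cell. Per 1000 Cd3 counts Unop nerves exceeded every NC PNA for Tnfsf8 (232 and 411), Tnfrsf9 (328 and 464) and Tnfsf14 (72 and 53.6). The same held for Faslg, Cd40lg and Tnfrsf4, whereas Cd27 and Tnfrsf18 were below every NC PNA in Unop nerves. These Unop values rested on few Cd3 counts, and a value per Cd3 count is no measure per T cell for these members either. Tnfrsf4, Tnfrsf9, Tnfrsf18 and Ltb overlapped between the 2 kinds of graft (exact permutation test, p between 0.2 and 0.9).

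A list of 39 genes covered adaptors, kinases, ligases, death effectors and brakes of TNF receptor signalling, and the receptors Ngfr and Relt. Both receptors belong to the superfamily but were not among the members chosen by symbol. Of the 39 genes, 38 were tested. In PEG-fused against NC PNAs 22 were lower, 2 were higher and 14 were not called, with a median log2 fold change of -0.43, where 13.9% of all genes tested were lower and 15.0% higher. Against Unop, 22 were higher and 4 lower in PEG-fused PNAs (29.1% and 28.6% of all genes), and 29 were higher and 3 lower in NC PNAs (32.2% and 32.3%). Birc3, the ligase cIAP2 and a target of NF-kB, had counts of 766, 511 and 516 in the PEG-fused PNAs, 3245, 5228 and 3361 in the NC PNAs and 217 and 184 in the Unop nerves. Its log2 fold change in PEG-fused against NC PNAs was -2.71 ± 0.22 (SE; adjusted p = 0.000439), limma. Tnfaip3 (A20), a brake on NF-kB that is also its target, had 327, 373 and 361 in the PEG-fused PNAs, 1064, 1588 and 1416 in the NC PNAs and 223 and 271 in the Unop nerves, with -1.92 ± 0.16 (SE; adjusted p = 0.000472). Both NC levels stood well apart from those of the other groups. The other lower genes with the smallest adjusted p were Bid, which links death receptors to mitochondria (-1.02, SE 0.086, adjusted p = 0.000472), the deubiquitinase Cyld (-0.94, SE 0.10, adjusted p = 0.000897) and Casp8, the initiator caspase of death receptors (-1.09, SE 0.12, adjusted p = 0.000979).

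**Figure D5:**
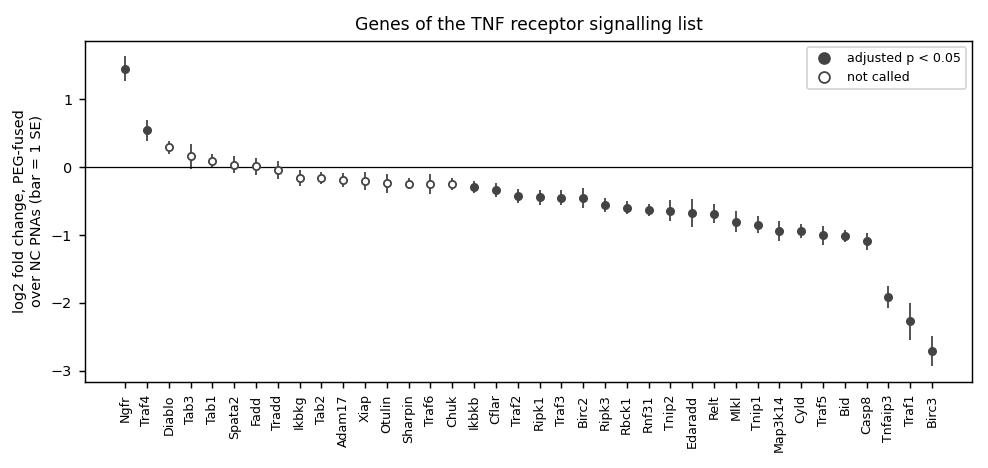
Log2 fold change in PEG-fused over NC PNAs (y axis, bars 1 SE from limma) of the 38 tested genes of the TNF receptor signalling list; filled points passed adjusted p under 0.05. Birc3 is lowest at -2.71 and Ngfr highest at 1.45, and the adaptors Tradd and Fadd lie near 0.

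The 2 higher genes of the list were Ngfr and Traf4. Ngfr, the p75 neurotrophin receptor that repair Schwann cells express, had counts of 15448, 20293 and 17141 in the PEG-fused PNAs, 6423, 7128 and 5706 in the NC PNAs and 1139.8 and 713 in the Unop nerves. All PEG-fused PNAs were above all NC PNAs (log2 fold change 1.45, SE 0.18, adjusted p = 0.00135, limma). Summed Schwann cell markers were 57652 to 64204 in PEG-fused and 18305 to 65753 in NC PNAs, with NC 1 above the PEG-fused range and NC 2 and NC 3 below, and their part in the Ngfr difference was not tested. Traf4, a TRAF adaptor of epithelial and neural tissue, had 591, 600.2 and 694 in the PEG-fused PNAs, 486, 444 and 366 in the NC PNAs and 268 and 205 in the Unop nerves, with 0.55 ± 0.16 (SE; adjusted p = 0.0326). The death domain adaptors Tradd and Fadd were not called, at -0.037 and 0.015 on the log2 scale.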

How the data were processed

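Each library is from the nerve of a separate rat. Signal values here are read counts normalized by the authors before they were deposited: paired reads of stranded mRNA libraries were aligned to Rnor 6.0 (Tophat2), counted per gene (HTSeq-count) and scaled by DESeq2 median-of-ratios size factors. The strand setting of the counting and the versions of these tools are not given in the sources used here. The deposited fold changes, test statistics and p-values of the authors for each pair of groups were not used.

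All values (100%) gave whole reads within 0.001 when divided by the value of 1 read in their library. Limma 3.58.1 (trend, R 4.3.3), checked on simulated counts, was fitted to log2(normalized count + 1) of all 8 libraries with group means, for genes with 10 or more counts in 2 or more libraries. P-values were adjusted by the Benjamini-Hochberg procedure across 16478 genes, and a call is an adjusted p under 0.05. Unop has 2 nerves, so its comparisons rest on a spread shared by the groups. From the recovered reads, edgeR 4.0.16 (quasi-likelihood test) called 2553 genes higher and 2424 lower in PEG-fused against NC PNAs, DESeq2 1.42.0 called 2778 and 2762, and limma called 2477 and 2286. Other alternatives were rescaling by TMM factors, no filter, a filter of 50 counts, a pseudocount of 8, a fit of the 2 groups alone, a robust fit, a replicate block, a fold change above 2 in addition, and each library left out. NC 2 as the only NC library, and no pseudocount for counts per 1000 Cd3 counts, were added after the data were seen.

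Ratios and counts per 1000 Cd3 counts were compared by exact two-sided permutation tests (SciPy 1.17.1, Python 3.11.15). Members, signalling list and marker lists were chosen with earlier results of these data known. All members are accounted for. From the signalling list, up to 5 called genes per direction, those of lowest adjusted p in PEG-fused against NC PNAs, are named with values, and Tradd and Fadd were added after their values were seen. Levels were not compared between genes, as lengths were not used. Promoter windows are from RefSeq (GRCr8).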

Additional observations from a re-analysis of the deposited data

How the results depend on the processing

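Of the counts of members called higher or lower in the 3 comparisons, all but 3 of 112 values under alternative settings stayed within 1.5 times the reported count. The exceptions were the members higher in PEG-fused than in NC PNAs, which became 1 in place of 2 (Eda was lost) when a fold change above 2 was required as well and ranged from 1 to 2 over the left-out libraries, and the members lower in NC PNAs than in Unop nerves, which became 1 in place of 3 with a fold change above 2. Whether shared replicate numbers pair the samples could not be settled. Deviations from the group means correlated at 0.108, 0.109 and -0.0502 between same-numbered PEG-fused and NC PNAs. PEG 1 and PEG 2 correlated best with the NC PNA of the same number, whereas PEG 3 correlated best with NC 2. These correlations were weak and too few to decide, and the main fit used no pairing. Same-numbered pairs with Unop correlated at 0.154 and 0.136 for PEG-fused and 0.152 and 0.157 for NC PNAs, but with 2 nerves their deviations mirror each other and only 2 pairs exist in each comparison. With a replicate block, 16 members were lower and 2 higher in PEG-fused against NC PNAs, 20 were higher and 5 lower in PEG-fused PNAs against Unop, and 25 were higher and 3 lower in NC PNAs against Unop.

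Of 2060 values of single members under alternatives, 30 changed sign, 76 lost and 20 gained a call, and each sign change was of a value that was not called. The cause of these changes was not tested. Between the grafts, over the left-out libraries, log2 fold changes ranged from -0.27 to 0.68 for Eda2r, -0.29 to 0.0088 for Tnfrsf11b, -0.039 to 0.25 for Tnfsf12, -0.013 to 0.15 for Tnfsf13 and -0.13 to 0.27 for Tnfsf9. With NC 2 as the only NC library they were -0.050 for Tnfsf12, -0.040 for Tnfsf13 and -0.17 for Tnfsf9. Against Unop, they ranged from -0.23 to 0.81 for Edar and -0.40 to 0.35 for Tnfsf13b in PEG-fused PNAs, and from -0.018 to 0.24 for Ltbr, -0.28 to 0.062 for Tnfrsf11a and -0.47 to 0.42 for Tnfrsf25 in NC PNAs. Edar was -0.037 with a replicate block, and with NC 2 alone Tnfrsf11a was 0.10 and Tnfrsf25 0.55. Per Cd3 count, log2 differences between the grafts ranged over the left-out libraries from -0.27 to 0.33 for Faslg, -0.056 to 0.24 for Cd27 and -0.67 to 0.35 for Tnfrsf4. With Cd2 and Cd5 as the denominator they were -0.49 for Faslg, -0.45 for Cd27 and -0.14 for Tnfrsf18, and without a pseudocount Faslg was -0.024. The ratio of Tnfsf11 to Tnfrsf11b was not run, since Tnfsf11 had 0 reads. Low counts limit what can be said of Lta and Tnfrsf13b in PEG-fused PNAs and of Ltb, Tnf and Tnfrsf17 in all libraries.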
